A study of Mus musculus with 6 samples.

Results

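The genes described here are 10 genes of recruited and inflammatory macrophages, namely Plac8, Ly6c2, Cd68, Aif1, Wfdc17, Lgals3, Trem2, Gpnmb, Chil3 and Arg1. They were chosen by gene symbol, and all 10 were found among the 22298 genes of the deposited table. Poly(A) RNA was sequenced from the hearts of wild-type female mice aged 18 months, from 3 hearts after TAC surgery and from 3 after sham surgery. TAC usually stands for transverse aortic constriction, in which a tie around the aortic arch raises the pressure the left ventricle works against, and a sham operation leaves out the tie. Mouse strain, the time from surgery to sampling and the part of the heart taken are not stated in the labels. The labels number the hearts within each group, and p-values measure the spread between these hearts. The 8 cardiomyocyte genes used to check the tissue, such as Myh6 and Tnnt2, summed to 56719, 49539 and 38407 CPM in TAC replicates 1, 2 and 3, against 56114, 56925 and 55020 CPM in sham replicates 1, 2 and 3, where CPM is a count divided by the TMM-scaled total of its library.

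In the mouse, blood monocytes that enter the stressed heart carry the surface antigen Ly-6C and the chemokine receptor CCR2, and mature into macrophages beside a resident population that renews itself locally. The entering cells may take up debris and lipid, a state marked by Trem2, Gpnmb and Lgals3, or make enzymes and lectins such as arginase 1 and the chitinase-like protein of Chil3, which are classed as genes of alternative activation. Cd68 and Aif1 are used as general markers of macrophages. In whole tissue, a larger number of such cells and more RNA per cell cannot be told apart.

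Of the 10 genes, 5 were higher in TAC hearts and none was lower: Chil3, Wfdc17, Plac8, Cd68 and Aif1 (edgeR quasi-likelihood test, Benjamini-Hochberg adjusted p under 0.05). Over all 13708 genes tested, 1.12% were called higher and 0.54% lower by the same rule. Every one of the 10 had a positive log2 fold change, with a median of 1.71 beside 0.03 over all genes tested. The 10 genes were chosen with earlier results of these data known, so these contrasts are a description and not a test. TAC and sham values did not overlap for 7 of the 10 genes, in CPM as in FPKM, which scales by gene length and depth. Of all genes tested, 18.4% had TAC values in CPM wholly above the sham values. That also held for 14 of 16 general macrophage genes and 10 of 14 blood monocyte genes tested, lists described below. For neutrophils it was 10 of 11 tested genes, and for red cells and platelets 7 of 7. The other macrophage lists had 10 of 21 (Trem2 signalling), 5 of 12 (alternative activation), 5 of 10 (classical inflammation) and 6 of 12 (resident). Fibroblast and cardiomyocyte lists had 0 of 8 each. The summed level of the 10 genes was 100.3, 208 and 321 CPM in TAC replicates 1, 2 and 3, against 54.8, 50.9 and 55.7 CPM in sham replicates 1, 2 and 3.

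**Figure D1:**
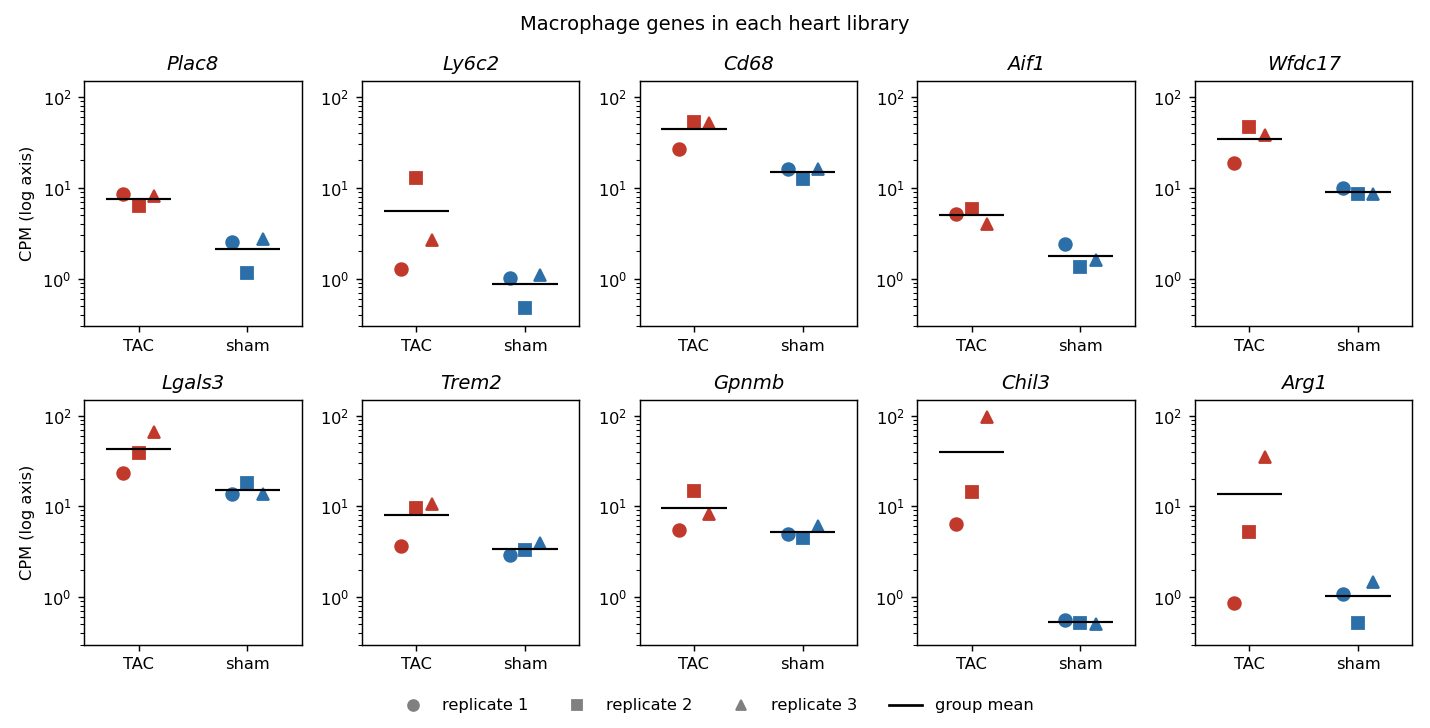
CPM of each gene (log axis) in the 3 TAC and the 3 sham libraries, with marker shapes for the replicate number and a line at the group mean. Chil3 has the widest gap between the groups, with TAC values of 6.39 to 96.8 CPM over sham values of 0.508 to 0.564 CPM, while in Arg1, Trem2 and Gpnmb TAC replicate 1 lies within the sham range.

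How many of the 10 genes were called depended on the libraries in the fit. With TAC replicate 1 left out all 10 genes passed, where 13.2% of all genes were called higher. The number was 0 without TAC replicate 2 (0.145% of all genes) and 1, Chil3, without TAC replicate 3 (0.59%). Without sham replicate 1, 2 or 3 it was 0 each time (0.043%, 0.0503% and 0.0287% of all genes). At an unadjusted p under 0.05, edgeR had 8 of the 10 higher without TAC replicate 2, and 9, 9 and 10 without sham replicates 1, 2 and 3. The share of all genes at that unadjusted level was not counted. TAC replicate 1 stood between the sham libraries and the other TAC libraries on the first principal component of log2 CPM, and it had the lowest TAC value in CPM in 8 of the 10 genes. The test also mattered. DESeq2's Wald test called 9 of the 10 higher, all but Gpnmb (6.14% of all genes), and limma-voom with library weights called 9, all but Arg1 (10.1%). Limma-voom without weights called Plac8 alone (0.7%), and limma-trend on log2 of FPKM plus 1 called Plac8, Aif1 and Wfdc17 (0.513%). With a pseudocount of 0.1 it called Chil3 as well (0.557%), and without a filter on low values it called 0 members (0.0974%). In edgeR, Cd68, Plac8, Chil3 and Wfdc17 passed with DESeq2 size factors (0.963% of all genes), upper-quartile factors (1.03%), no filter on low counts (0.665%) and a minimum count of 100 (1.31%). At an adjusted p under 0.10, Trem2 and Lgals3 passed too, for 7 in all (8.25%).

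The sequences that follow show where reads of 1 member could be misplaced, and the region just before the start of members that carry motifs of factors named for macrophages. Ly6c2 lies beside Ly6c1, whose product is also detected by antibodies to Ly-6C and which endothelial cells express. The coding sequences of transcripts Ly6c2-201 and Ly6c1-201 (GENCODE M21, GRCm38, chromosome 15, minus strand) have 393 bases each and differ at 9 of them, an identity of 97.7%, with a longest identical run of 188 bases. Of all 100-base stretches of the Ly6c2 transcript, 15.8% also occur in that of Ly6c1. Coding bases 1 to 150 hold 6 of the 9 differences, which are in capitals:
Ly6c2: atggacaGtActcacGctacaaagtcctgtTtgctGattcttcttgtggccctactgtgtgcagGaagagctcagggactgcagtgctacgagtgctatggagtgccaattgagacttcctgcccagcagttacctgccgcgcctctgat
Ly6c1: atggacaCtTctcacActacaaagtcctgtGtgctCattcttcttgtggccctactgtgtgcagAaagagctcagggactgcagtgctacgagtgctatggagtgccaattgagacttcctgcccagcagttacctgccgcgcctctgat

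RefSeq windows of 250 bases before the start (GRCm38.p6) were found for 9 of the 10 genes, 11 windows in all, with Arg1 the gene not matched. Each was searched on both strands for GAGGAAG and GGAAGTG (ETS type, bound by PU.1, the factor of Spi1, and able to overlap), TGANTCA (AP-1), CACGTG (the E-box of MITF and TFEB) and TTNNNNGAA (STAT). GAGGAAG was found in 4 of the 11 windows (Ly6c2 in both of its overlapping windows, Trem2 and Wfdc17) and in 10.6% of all windows. GGAAGTG was found in 1 of the 11 (Chil3) and in 8.55% of all windows. TGANTCA was found in 2 of the 11 (Cd68 and Trem2) and in 6.75% of all windows. CACGTG was in 0 of the 11 and in 6.02% of all windows, and TTNNNNGAA in 7 of the 11 and in 34.2% of all windows. These matches are descriptions of the letters and do not show binding. Given 5′ to 3′ on the strand of the gene with ETS-type and AP-1 matches in capitals, these windows hold a match and no base of an annotated exon. They are chr11:69666171-69666420 (minus strand) for Cd68, chr3:106167565-106167814 (minus strand) for Chil3, chr17:48346151-48346400 (plus strand) for Trem2 and chr15:75111972-75112221 (minus strand) for Ly6c2:
Cd68: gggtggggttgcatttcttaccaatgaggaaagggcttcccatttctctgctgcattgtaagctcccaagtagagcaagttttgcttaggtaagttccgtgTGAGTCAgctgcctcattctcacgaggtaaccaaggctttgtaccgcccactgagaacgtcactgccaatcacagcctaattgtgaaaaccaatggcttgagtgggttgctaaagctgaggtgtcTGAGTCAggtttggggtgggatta
Chil3: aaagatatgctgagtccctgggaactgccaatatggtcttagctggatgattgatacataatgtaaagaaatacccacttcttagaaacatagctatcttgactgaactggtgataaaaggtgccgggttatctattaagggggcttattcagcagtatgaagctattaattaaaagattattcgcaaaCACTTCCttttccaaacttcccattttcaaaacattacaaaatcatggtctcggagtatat
Trem2: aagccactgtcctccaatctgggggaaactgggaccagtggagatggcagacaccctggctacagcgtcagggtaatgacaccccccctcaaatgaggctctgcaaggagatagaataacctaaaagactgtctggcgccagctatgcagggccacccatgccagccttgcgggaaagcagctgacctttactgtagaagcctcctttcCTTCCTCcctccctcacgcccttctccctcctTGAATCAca
Ly6c2: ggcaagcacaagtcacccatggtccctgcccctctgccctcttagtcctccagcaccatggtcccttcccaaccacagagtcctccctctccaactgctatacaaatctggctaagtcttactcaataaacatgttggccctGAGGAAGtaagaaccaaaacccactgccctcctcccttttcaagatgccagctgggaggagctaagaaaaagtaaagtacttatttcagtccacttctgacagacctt

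The monocyte genes Plac8 and Ly6c2 differed in how evenly the TAC libraries carried them. Plac8 encodes a small cysteine-rich protein abundant in blood monocytes (ENSMUSG00000029322, GRCm38 chr5:100553725-100572245, minus strand). It had 208, 144 and 190 estimated counts in TAC replicates 1, 2 and 3, against 49, 31 and 59 in sham replicates 1, 2 and 3. In FPKM the TAC libraries had 10.79, 8.29 and 11.52, against 3.34, 1.51 and 3.76 in the sham libraries. All TAC values lay above all sham values, and the TAC libraries were within 1.35-fold of each other in CPM, the narrowest TAC spread of the 10 genes. Plac8 rose 3.60-fold, from the fit, with 7.60 ± 1.18 CPM in TAC and 2.13 ± 0.86 CPM in sham (SD, n = 3 each). Its log2 fold change was 1.85 with an SE of 0.33 (adjusted p = 0.0391 by edgeR). It was the only member called by limma-voom (adjusted p = 0.0419). The call was lost without TAC replicate 2 or 3 (edgeR adjusted p = 0.0986 and 0.0694) and without sham replicate 1, 2 or 3 (0.145, 0.134 and 0.170).

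Ly6c2 encodes an antigen of the Ly-6C pair that marks inflammatory monocytes (ENSMUSG00000022584, chr15:75108158-75111970, minus strand). It had 31.11, 293.7 and 62.9 estimated counts in TAC replicates 1, 2 and 3, against 20.1, 13.06 and 24.13 in sham replicates 1, 2 and 3. Its values were fractional in every library, so some reads were divided between genes, while the other 9 members had whole counts in all 6 libraries. Ly6c1 had a whole count in TAC replicate 2, at 5636, and fractional counts elsewhere. The relative Ly6a, also on chromosome 15, had 5241.72, 4470.3 and 6302.82 estimated counts in TAC replicates 1, 2 and 3. In sham replicates 1, 2 and 3 it had whole counts of 2962, 3162 and 2759. Which genes shared reads with Ly6c2 in each library was not tested. TAC replicate 2 was far above the rest, at 12.8 CPM, and TAC replicate 1 at 1.26 CPM lay just above the highest sham library at 1.11 CPM. The log2 fold change of 2.69 (SE 0.83) did not pass (edgeR adjusted p = 0.10). Without TAC replicate 2 it was 1.16 (adjusted p = 0.265). It passed, at 3.16, when TAC replicate 1 was left out (adjusted p = 0.0213). The neighbour Ly6c1 stood far higher, at 234 ± 12.2 CPM in TAC and 178 ± 10.9 CPM in sham, and its log2 fold change of 0.39 (SE 0.12) did not pass either (edgeR adjusted p = 0.0980). Ly6c2 made up 0.570%, 4.95% and 1.11% of the counts of both genes in TAC replicates 1, 2 and 3, against 0.618%, 0.263% and 0.594% in sham replicates 1, 2 and 3. These shares overlapped between the groups. The exact two-sided permutation test of the log2 ratio of their counts gave p = 0.3, where 3 against 3 cannot go below 0.1. The 8 endothelial genes, Ly6c1 among them, summed to 1574 to 1756 CPM in TAC and 1782 to 1874 CPM in sham. By edgeR 3 of the 8 had a positive and 5 a negative log2 fold change. Tie1 alone passed, as lower, and 0 passed without TAC replicate 2 or 3 or any sham replicate. DESeq2 called 2 higher and 2 lower. Ly6c1 itself was higher in every TAC library than in every sham library. The part of endothelial RNA in the Ly6c2 counts was not tested.

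The general macrophage markers Cd68 and Aif1 both rose, and they differed in which TAC library was lowest. Cd68 encodes a glycoprotein of macrophage lysosomes (ENSMUSG00000018774, chr11:69664213-69666153, minus strand). It had 658, 1224 and 1229 estimated counts in TAC replicates 1, 2 and 3, against 310, 340 and 353 in the sham libraries. In FPKM these were 20.74, 42.60 and 45.06 in TAC, against 12.76, 10.03 and 13.61 in sham. Every TAC library was higher than every sham library, with TAC replicate 1 nearest to the sham level. Cd68 was 2.96-fold higher, with 44.1 ± 15.0 CPM in TAC and 14.9 ± 2.09 CPM in sham (SD, n = 3 each; log2 fold change 1.56 with an SE of 0.26, adjusted p = 0.0359 by edgeR). Aif1 encodes the actin-binding protein IBA1 (ENSMUSG00000024397, chr17:35170991-35176068, minus strand). It had 127, 136 and 95 estimated counts in TAC replicates 1, 2 and 3, against 47, 36 and 35 in the sham libraries, and 5.85, 6.91 and 5.09 FPKM in TAC against 2.83, 1.55 and 1.97 FPKM in sham. Here TAC replicate 1 was not the lowest, and replicate 3 was. Aif1 was 2.84-fold higher, with 5.04 ± 0.94 CPM in TAC and 1.78 ± 0.56 CPM in sham (log2 fold change 1.51 with an SE of 0.29, adjusted p = 0.0486 by edgeR). Its relative Aif1l, the gene of a similar protein, stood at 6.69 ± 2.43 CPM in TAC and 6.98 ± 0.74 CPM in sham, a log2 fold change of -0.06 that did not pass (adjusted p = 0.909). Without TAC replicate 1 both passed (edgeR adjusted p = 0.00226 for Cd68 and 0.0237 for Aif1). Without any other library neither did, at 0.0650 to 0.201 for Cd68 and 0.0579 to 0.239 for Aif1.

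Of the members whose products activated macrophages release, Wfdc17 rose and Lgals3 did not pass. Wfdc17 encodes a secreted protein of activated macrophages with a whey acidic protein domain (ENSMUSG00000069792, chr11:83703991-83706268, plus strand). Its estimated counts were 461, 1071 and 891 in TAC replicates 1, 2 and 3, against 192, 234 and 183 in the sham libraries. In FPKM it was at 33.52, 86.01 and 75.39 in TAC, against 18.24, 15.94 and 16.28 in sham, the highest level per length of the 10 genes in both groups. The sham libraries were within 1.17-fold of each other in CPM, and all TAC libraries lay above them. Wfdc17 rose 3.83-fold, with 34.4 ± 14.2 CPM in TAC and 8.97 ± 0.77 CPM in sham (SD, n = 3 each; log2 fold change 1.94 with an SE of 0.30, adjusted p = 0.0317 by edgeR). The call was lost without TAC replicate 2 or 3 (adjusted p = 0.0928 and 0.0580) and without sham replicate 1, 2 or 3 (0.141, 0.183 and 0.191). Its relatives Wfdc18 and Wfdc21 held at most 33 estimated counts in any library and did not pass the filter on low counts. Lgals3 encodes galectin-3, a lectin that macrophages release and that other stressed cells also make (ENSMUSG00000050335, chr14:47367751-47386160, plus strand). It had 578, 901 and 1538 estimated counts in TAC replicates 1, 2 and 3, against 266, 491 and 293 in the sham libraries, or 19.65, 34.29 and 60.82 FPKM in TAC against 11.76, 15.63 and 12.12 FPKM in sham. The groups did not overlap, but the TAC libraries spread 2.78-fold. The fitted ratio of TAC to sham, 2.83 with an SE of 0.34 on the log2 scale, did not pass with all libraries (edgeR adjusted p = 0.0627), and Lgals3 passed without TAC replicate 1 (log2 fold change 1.77, adjusted p = 0.00606). The small galectin gene Lgals1 stood at 270 ± 74.1 CPM in TAC and 175 ± 18.6 CPM in sham, a log2 fold change of 0.62 that did not pass (adjusted p = 0.109).

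Trem2 and Gpnmb, genes of lipid-handling macrophages, did not pass the test. Trem2 encodes a lipid-sensing receptor that signals through the adaptor of Tyrobp (ENSMUSG00000023992, chr17:48346401-48354147, plus strand). It had 89, 221 and 250 estimated counts in TAC replicates 1, 2 and 3, against 56, 89 and 85 in the sham libraries, and 3.19, 8.75 and 10.42 FPKM in TAC against 2.62, 2.98 and 3.75 FPKM in sham. TAC replicates 2 and 3 were above all sham libraries and TAC replicate 1 lay within the sham range. The log2 fold change was 1.24 with an SE of 0.38 (adjusted p = 0.0982 by edgeR), and 1.57 without TAC replicate 1 (adjusted p = 0.00554). Tyrobp stood at 35.6 ± 15.0 CPM in TAC and 16.1 ± 2.77 CPM in sham, and the difference of 1.15 on the log2 scale, with an SE of 0.29, did not pass (edgeR adjusted p = 0.0733). Trem1, an activating receptor of neutrophils and monocytes, had 9, 28 and 128 estimated counts in TAC against 1, 3 and 0 in sham. The filter on low counts left it out of the main test. Gpnmb encodes a membrane glycoprotein of lysosome-rich macrophages (ENSMUSG00000029816, chr6:49036546-49070929, plus strand). It had 134, 343 and 194 estimated counts in TAC replicates 1, 2 and 3, against 96, 121 and 132 in sham, and 1.40, 4.42 and 2.86 FPKM in TAC against 1.43, 1.19 and 2.07 FPKM in sham. The groups overlapped and TAC replicate 2 was the highest. Gpnmb had the smallest log2 fold change of the 10 genes, 0.89 with an SE of 0.35 (adjusted p = 0.161 by edgeR). Leaving out TAC replicate 2 gave 0.38 (adjusted p = 0.416), and Gpnmb passed when TAC replicate 1 was left out (1.16, adjusted p = 0.0312).

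Chil3 and Arg1, classed with alternative activation, had the largest fitted changes and the widest spread between TAC hearts. Chil3 encodes the chitinase-like lectin Ym1, which mouse neutrophils make as well as macrophages (ENSMUSG00000040809, chr3:106147554-106167564, minus strand). It had 157, 332 and 2276 estimated counts in TAC replicates 1, 2 and 3, against 11, 14 and 11 in sham replicates 1, 2 and 3. In FPKM it was at 3.95, 9.23 and 66.70 in TAC, against 0.36, 0.33 and 0.34 in sham. All TAC libraries were far above the sham libraries, which differed by only 1.11-fold in CPM, while TAC replicate 3 exceeded TAC replicate 1 by 15.1-fold. Chil3 rose 73.6-fold, with 39.2 ± 50.04 CPM in TAC and 0.529 ± 0.031 CPM in sham (SD, n = 3 each; log2 fold change 6.20 with an SE of 1.13, adjusted p = 0.0434 by edgeR). Without TAC replicate 3 the log2 fold change was 4.27 and still passed (edgeR adjusted p = 0.00613), as it did without TAC replicate 1 (adjusted p = 0.00592). The call was lost without TAC replicate 2 (adjusted p = 0.0934) and without sham replicate 1, 2 or 3 (0.153, 0.215 and 0.232). The related gene Chil4 had 0 counts in every library. Of the 100-base stretches of the Chil3 transcript 3.75% also occur in that of Chil4. In the same family, the chitinase-like gene Chil1 had 42, 332 and 141 estimated counts in TAC against 29, 53 and 37 in sham, a log2 fold change of 2.09 that did not pass (adjusted p = 0.101).

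Arg1 encodes arginase 1, which breaks down arginine (ENSMUSG00000019987, chr10:24915221-24927484, minus strand). It had 21, 121 and 820 estimated counts in TAC replicates 1, 2 and 3, against 21, 14 and 32 in the sham libraries, and 0.55, 3.51 and 25.04 FPKM in TAC against 0.72, 0.34 and 1.03 FPKM in sham. TAC replicate 1 was at the sham level, replicate 2 above it and replicate 3 higher again, a 40.8-fold range between TAC libraries in CPM. The log2 fold change of 3.76 (SE 1.17) did not pass (edgeR adjusted p = 0.101). It was 1.58 without TAC replicate 3 (adjusted p = 0.258), and passed at 4.29 without TAC replicate 1 (adjusted p = 0.0143). Arg2, the mitochondrial arginase, was highest in TAC replicate 3. It had 1, 3 and 41.07 estimated counts in TAC replicates 1, 2 and 3, against 2, 1 and 4 in sham. The filter on low counts left Arg2 out of the main test.

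**Figure D2:**
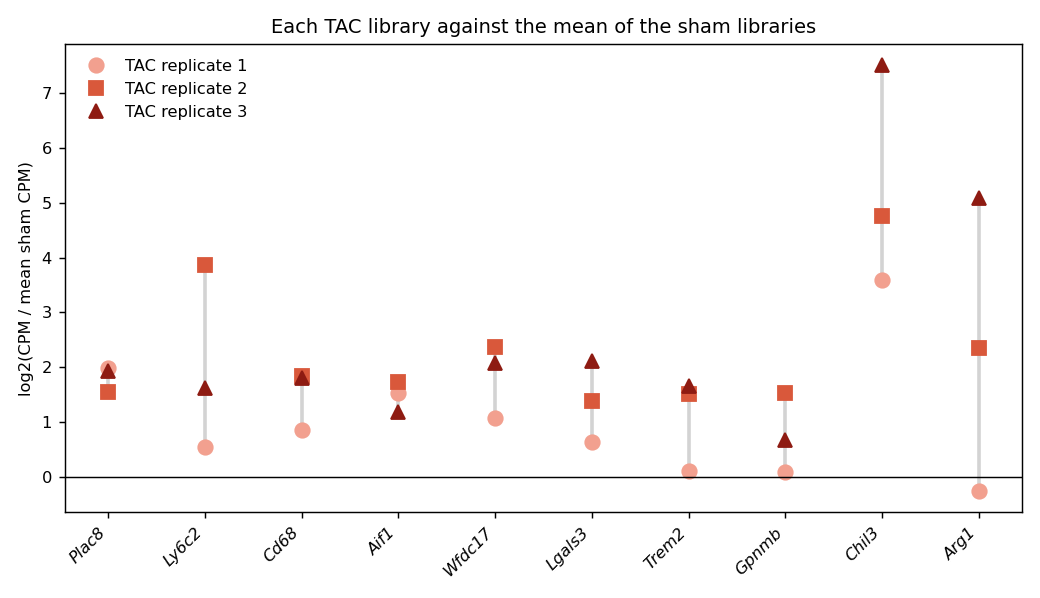
For each gene, log2 of the CPM of each TAC library over the mean CPM of the sham libraries, with 0 at the sham mean. Chil3 spans 3.59 to 7.52 and Arg1 spans -0.26 to 5.09, against 1.56 to 1.99 for Plac8.

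The order of the TAC libraries differed from gene to gene. In CPM, TAC replicate 2 was the highest TAC library for 5 genes (Ly6c2, Cd68, Gpnmb, Aif1 and Wfdc17), TAC replicate 3 for 4 (Chil3, Arg1, Trem2 and Lgals3) and TAC replicate 1 for Plac8. For Cd68, replicates 2 and 3 were close, at 53.1 and 52.3 CPM, and in FPKM replicate 3 was the higher. Averaged over the 10 genes on log2 of CPM plus 0.5, the distance above the sham mean was 0.89 in TAC replicate 1, 2.04 in replicate 2 and 2.33 in replicate 3. The tested genes with the profile closest to that average over the 6 libraries were Cxcr6, a chemokine receptor, Lilr4b, an inhibitory receptor of myeloid cells, Fpr2, a formyl peptide receptor, Gda, guanine deaminase, and Hsp90aa1, a cytosolic chaperone. Their root mean square differences from it were 0.12, 0.12, 0.14, 0.15 and 0.17 on the log2 scale. Since they were picked for this likeness, no test applies.

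**Figure D3:**
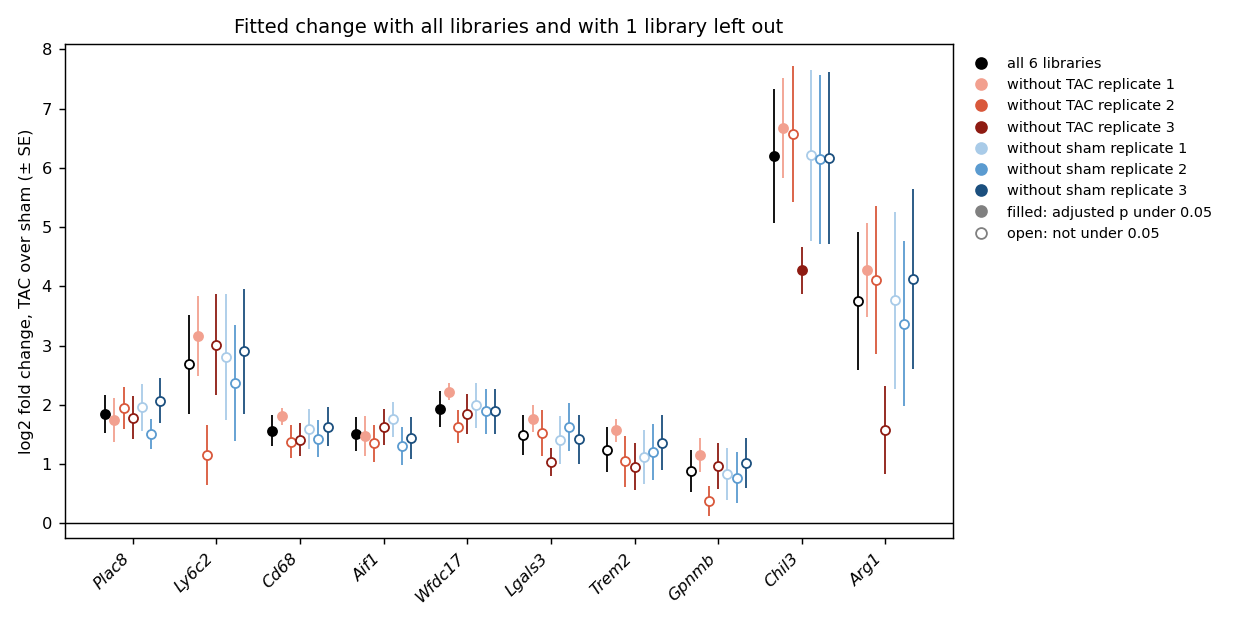
Fitted log2 fold change of TAC over sham with its SE for each gene, with all 6 libraries and with each library left out. Filled points passed at an adjusted p under 0.05. All 10 points without TAC replicate 1 are filled, while without TAC replicate 2 none is, and the points of Ly6c2 and Gpnmb without TAC replicate 2 (1.16 and 0.38) and of Chil3 and Arg1 without TAC replicate 3 (4.27 and 1.58) lie lowest.

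Levels between genes were compared per length, in FPKM. In TAC hearts the order was Wfdc17 at 65.0 ± 27.8, Lgals3 at 38.3 ± 20.9, Cd68 at 36.1 ± 13.4 and Chil3 at 26.6 ± 34.8 FPKM (SD, n = 3 each), with the other 6 at or below a mean of 10.2 FPKM. In sham hearts Wfdc17 at 16.8 ± 1.24, Lgals3 at 13.2 ± 2.14 and Cd68 at 12.1 ± 1.87 FPKM led, and Chil3 was the lowest at 0.343 ± 0.015 FPKM. Chil3 was thus 10th of 10 in sham and 4th of 10 in TAC. Neighbours in the TAC order overlapped between libraries, except Aif1 over Gpnmb. In the sham order only Wfdc17 lay above Lgals3, and Cd68 above Trem2, in every library.

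General macrophage genes also stood higher in TAC hearts, and 5 of the members stood higher relative to them. The list of 16 general genes (Csf1r, Adgre1, the C1q genes, Ptprc and others) summed to 714, 1089 and 871 CPM in TAC replicates 1, 2 and 3, against 542, 432 and 501 CPM in sham replicates 1, 2 and 3. Of its 16 tested members 3 rose, 0 fell and 13 did not pass by edgeR, with a median log2 fold change of 0.90. DESeq2 called 14 higher, limma-voom with library weights 14, and edgeR at an adjusted p under 0.10 called 13. Those that rose were Ptprc, the leukocyte phosphatase CD45 (1.99, SE 0.35, edgeR adjusted p = 0.0410), Ctss, a lysosomal protease (2.82-fold, adjusted p = 0.0436), and Cd53, a tetraspanin of leukocytes (1.44, SE 0.27, adjusted p = 0.0476). Without TAC replicate 2 or any sham replicate 0 of the 16 passed, without TAC replicate 3 it was 1, and without TAC replicate 1 it was 14. Csf1r, the receptor for the macrophage growth factor CSF1, stood at 115 ± 21.9 CPM in TAC and 97.0 ± 9.46 CPM in sham (log2 fold change 0.24, SE 0.16, adjusted p = 0.352). Spi1, which encodes PU.1, was at 15.3 ± 4.59 CPM in TAC and 7.55 ± 0.92 CPM in sham (1.02, SE 0.24, adjusted p = 0.0631).

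Set against that sum, Cd68 made up 3.75%, 4.88% and 6.0% in TAC replicates 1, 2 and 3, against 2.93%, 2.89% and 3.25% in the sham libraries. Wfdc17 stood at 2.63%, 4.27% and 4.35% in TAC, against 1.82%, 1.99% and 1.69% in sham. For these, and for Plac8, Chil3 and Aif1, every TAC ratio lay above every sham ratio, as it did for 1.52% of all genes tested. The ratios of Ly6c2, Arg1, Trem2, Gpnmb and Lgals3 overlapped between the groups. For Gpnmb the ratio was 0.764%, 1.37% and 0.947% in TAC, against 0.909%, 1.03% and 1.22% in sham.

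**Figure D4:**
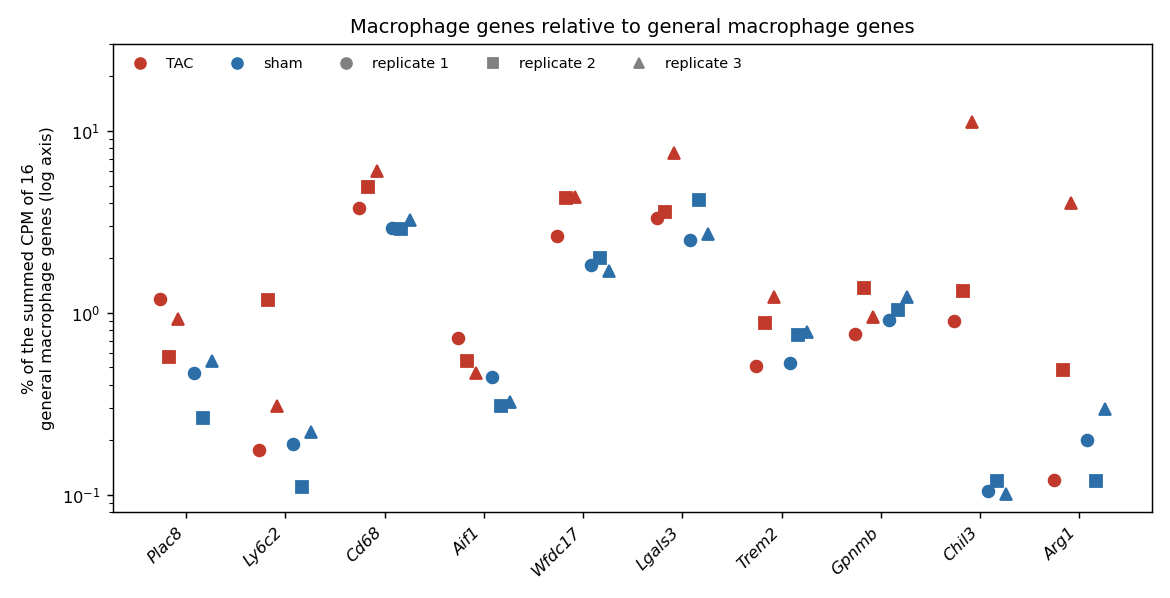
CPM of each gene as a percentage of the summed CPM of 16 general macrophage genes in the same library (log axis), TAC to the left of sham for each gene. Chil3 lies at 0.895% to 11.1% in TAC and at 0.101% to 0.119% in sham, and Gpnmb, Trem2 and Lgals3 overlap.

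By edgeR, 0 or 1 genes of each neighbouring macrophage and monocyte list passed, and DESeq2 called more. Over all genes tested, edgeR called 1.12% higher, DESeq2 6.14% and limma-voom with library weights 10.1%. Of 14 tested blood monocyte genes 1 rose and 13 did not pass by edgeR (median log2 fold change 1.54). DESeq2, with 16 genes of the list tested, called 11 higher, and limma-voom with library weights called 11. The gene that rose was Ccr2, the chemokine receptor of entering monocytes, with 22.5 ± 11.9 CPM in TAC and 3.12 ± 1.17 CPM in sham (log2 fold change 2.86 with an SE of 0.46, adjusted p = 0.0327 by edgeR). Of 21 tested genes of Trem2 signalling and lipid handling, 0 rose or fell by edgeR, with a median of 0.24, while 9 were higher at an unadjusted p under 0.05 and DESeq2 called 3 higher. Its most abundant members were the lipase gene Lpl (log2 fold change 0.15, SE 0.27) and the fatty acid transporter gene Cd36 (0.14, SE 0.15). Heart muscle and vessels also express both. Across the 21 genes, 18 had a positive and 3 a negative log2 fold change. Of 12 tested genes of alternative activation, Mrc1, the mannose receptor gene, was the 1 that rose (1.39, SE 0.26, edgeR adjusted p = 0.0436). The median of the list was 0.78, and DESeq2 called 5 of 14 tested higher. Of 10 tested genes of classical inflammation, 0 rose or fell by edgeR (median 1.27). At an unadjusted p under 0.05, 7 of the 10 were higher and 1 lower by edgeR. DESeq2 called 7 of 16 tested genes of this list higher and 1 lower. Its most abundant member was Nos2, the inducible nitric oxide synthase gene, at -0.67 (SE 0.15, edgeR adjusted p = 0.0627). Next was Socs3, a feedback inhibitor of cytokine signalling, at 1.29 (SE 0.52, edgeR adjusted p = 0.168). Across the 10 tested genes of classical inflammation, 8 had a positive and 2 a negative log2 fold change. For the lists counted at an unadjusted p, the share of all genes at that level was not counted. The resident macrophage list had F13a1, the gene of coagulation factor XIII A, higher (1.07, SE 0.20, edgeR adjusted p = 0.0471) and 11 of 12 not passing (median 0.70), while DESeq2 called 6 higher. Without TAC replicate 1, edgeR called higher 14 of 16 blood monocyte genes, 8 of 21 of Trem2 signalling, 5 of 12 of alternative activation and 7 of 12 resident genes. For classical inflammation it called 9 of 12 higher and 2 lower. In that fit 13.2% of all genes tested were called higher. Without TAC replicate 2 or any sham replicate the number higher was 0 for each of these 5 lists. Without TAC replicate 3 it was 1 for alternative activation and 0 for the rest.

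Among markers of other cell types, genes of neutrophils and of red cells and platelets rose. Among 11 tested neutrophil genes, S100a8, S100a9, Lcn2 and Mmp8 rose by edgeR. All 11 had a positive log2 fold change, with a median of 4.18 beside 1.71 for the 10 members. The 14 neutrophil genes summed to 55.6, 243 and 266 CPM in TAC replicates 1, 2 and 3. In sham replicates 1, 2 and 3 they summed to 17.6, 9.75 and 13.3 CPM. DESeq2 called 11 of 12 tested neutrophil genes higher. In edgeR the number was 12 of 12 tested without TAC replicate 1. It was 1 (Ngp) without TAC replicate 2, 1 (Lcn2) without TAC replicate 3, and 0 without any 1 sham replicate. Ly6g, a defining marker, was at 0 in every sham library and at 3, 7 and 2 counts in TAC. Mouse neutrophils also make Chil3, and the part of neutrophil RNA in these results was not tested. Genes of T and NK cells summed to 6.03 to 11.03 CPM in TAC and 3.64 to 5.18 CPM in sham, those of B cells to 8.59 to 36.1 CPM in TAC and 5.34 to 8.82 CPM in sham, and those of dendritic cells to 25.6 to 28.4 CPM in TAC and 22.5 to 25.2 CPM in sham. No gene of these 3 lists passed by edgeR. At an unadjusted p under 0.05 the numbers higher were 3 for T and NK cells, 3 for B cells and 2 for dendritic cells, and DESeq2 called 2 B cell genes higher and none of the other lists. The 8 fibroblast genes summed to 1862 to 2146 CPM in TAC and 2070 to 2481 CPM in sham, and none passed by edgeR. At an unadjusted p under 0.05, 1 fibroblast gene was higher and 1 lower, and DESeq2 called 1 higher. For these 4 lists the share of all genes at that unadjusted level was not counted. Red cell and platelet genes summed to 1397 to 2461 CPM in TAC and 663 to 1128 CPM in sham, with the highest value in TAC replicate 1, where 8 of the 10 members were lowest among TAC libraries. Of the 7 tested, Slc4a1, Alas2 and Itga2b rose by edgeR, and DESeq2 called 7 of 8 tested higher. By edgeR 6 passed without TAC replicate 1 and 0 with any other library left out. The part of red cell RNA in the members' results was not tested.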

How the data were processed

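RNA of 6 heart libraries, 3 TAC and 3 sham, was measured. Titles gave each library's group and number. Per the labels' protocols, poly(A) RNA was captured with oligo(dT), libraries were built with NEBNext Ultra reagents, and a NovaSeq instrument was used. The deposited table holds an estimated count and an FPKM value per gene and library, per the file headers. Bowtie2 2.2.8, HISAT2, StringTie 1.3.1, DESeq2 and GRCm38 are named in the submitters' processing notes. The sources used here give neither their roles, the annotation release, nor whether counting used strand. No annotated gene overlapped a member in GENCODE M21 (GRCm38), which matched 22255 of the 22298 identifiers.

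Libraries held 19747265 to 27549838 estimated counts. Each replicate was kept as a sample, since chi-square per degree of freedom between replicates was at least 11.7. The spread was unequal, at 11.7 to 18.1 between sham replicates and 78.3 to 100 between TAC replicates. Estimated counts were rounded and tested, TAC over sham, two-sided, with edgeR 4.0.16 under R 4.3.3 (TMM, glmQLFit, glmQLFTest, and filterByExpr at a minimum count of 10) and Benjamini-Hochberg adjustment over all genes tested, with no covariate. The step was tested on counts simulated with the same spread in both groups, which differs from the unequal spread of these libraries. All 10 members passed the filter, with at least 11 counts in every library. CPM used TMM-scaled library sizes. The SE is the size of the log2 fold change over the square root of F, an approximation.

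Members, lists and tests were chosen with earlier results of these data known. Named genes were the members, some of their relatives by family, Spi1, Csf1r, Ccr2, Tyrobp and the 5 genes closest in profile. Also named were up to 4 called genes per list, or the 2 most abundant where none was called. The relatives Chia1, Trem3, Treml1, Treml2, Lgals4, Pmel and Lamp1 were measured and are not described above. Trem3 and Treml1 did not pass the filter on low counts, and the rest of these were not called by edgeR. Others, such as marker genes, were named after their values were seen. Alternatives were DESeq2 1.42.0, limma 3.58.1 (limma-voom with and without library weights, and limma-trend on log2 of FPKM plus 1 or 0.1), other scalings and filters, an adjusted p under 0.10, a replicate block and each library left out. Protein sequences were not used here.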

Additional observations from a re-analysis of the deposited data

How the results depend on the processing

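All 10 members kept a positive log2 fold change under all alternatives run. With all libraries 5 of the 10 members were called, with 153 genes higher and 74 lower over the table. Scaling changed little: DESeq2 size factors, upper-quartile factors, no filter on low counts and a minimum count of 100 each called 4 members, losing Aif1, which the minimum count of 100 leaves untested with 3 other members. DESeq2's Wald test called 9 members, all but Gpnmb, with 1063 genes higher and 594 lower. Library weights in limma-voom also called 9, all but Arg1 (1379 higher, 715 lower), while limma-voom without weights called 1 (96 higher). Limma-trend called 3 members on log2(FPKM + 1) (59 higher), 4 on log2(FPKM + 0.1) (64 higher) and 0 without a filter (17 higher, 13 lower). An adjusted p under 0.10 called 7 (1131 higher, 479 lower). The causes were not tested. With 1 library left out, which also leaves fewer samples, members called ranged from 0 to 10, genes higher from 4 to 1837 and genes lower from 8 to 1392, the upper ends without TAC replicate 1.

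Pairing of hearts by replicate number was not seen. Deviations from the group means correlated at 0.01, -0.11 and -0.02 between TAC and sham libraries of the same number. Of 6 libraries, 1 correlated best with its own number. Deviations within so small a group depend on each other, so these values cannot decide whether the hearts were paired. With the replicate block, 48 genes were higher (0.35%) and 26 lower, and Plac8 and Chil3 were the 2 members called. Chil3, Arg1 and Ly6c2 had 11 to 32 counts per sham library, and the effect of depth was not tested.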
